A study of Mus musculus with 6 samples.

Results

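Immediate early response genes were described in RNA sequencing of mouse spleen with and without Dox. The 10 genes were taken by symbol from the gene IDs of the deposited count table, which lists 40808 genes. They comprised the Fos-family genes Fos and Fosb, the Jun-family genes Jun, Junb and Jund, the zinc-finger genes Egr1 and Egr2, the nuclear receptor gene Nr4a1, the phosphatase gene Dusp1, and Ier2. All 10 were listed in the table, and 9 had enough counts to be tested; Fosb did not. Per the labels' protocols, the RNA came from leukaemia cells of the spleen of mice that had received a bone marrow transplant, and the study's title concerns the control of NOTCH by UVRAG, ITCH and the ESCRT machinery. The group without Dox had 3 libraries (replicates 4, 5 and 6) and the group with Dox had 3 (replicates 10, 11 and 12). The labels do not spell out Dox, and they give no dose, time, genotype, strain, age or sex. They also do not say whether the libraries of a group came from separate animals, so p-values measure only the spread between these samples.

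Immediate early genes are switched on within minutes of a stimulus by transcription factors that are already present in the cell, without new protein synthesis. Growth factor, cytokine and antigen receptors reach them through mitogen-activated protein (MAP) kinases, which act on serum response factor (SRF), its ETS-family partners and CREB at the promoters. Jun and Fos proteins pair into AP-1, EGR proteins bind GC-rich sites, and both alter the genes of the later response. Their mRNAs are short-lived, and several carry AU-rich elements in the 3′ untranslated region that bind decay factors. In lymphocytes these genes report recent signalling, and Jun and Egr1 are also induced by tissue handling.

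Promoter sequence is shown for Jun and Nr4a1, which fell with Dox, for Fos, the classical gene of the class, and for Egr2, for a CArG box, the site bound by SRF. Each run gives the 150 bases before a RefSeq start site on the gene's own strand, from GRCm38.p6, in lower case with motif matches in capitals. The windows are chr4:95052223-95052372 (minus strand) for Jun, chr15:101266696-101266845 (plus) for Nr4a1, chr12:85473740-85473889 (plus) for Fos and chr10:67537719-67537868 (plus) for Egr2. None of the 4 windows overlapped an annotated exon of GENCODE M21 (0 exons each).
Jun: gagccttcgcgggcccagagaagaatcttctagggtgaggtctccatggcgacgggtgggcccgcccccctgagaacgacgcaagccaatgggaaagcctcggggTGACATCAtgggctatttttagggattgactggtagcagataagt
Nr4a1: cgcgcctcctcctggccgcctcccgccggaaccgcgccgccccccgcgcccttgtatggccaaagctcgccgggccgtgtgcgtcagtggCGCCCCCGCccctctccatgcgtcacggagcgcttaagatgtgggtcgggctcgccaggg
Fos: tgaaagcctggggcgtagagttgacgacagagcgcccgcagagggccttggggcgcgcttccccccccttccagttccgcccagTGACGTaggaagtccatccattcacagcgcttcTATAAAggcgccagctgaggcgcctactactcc
Egr2: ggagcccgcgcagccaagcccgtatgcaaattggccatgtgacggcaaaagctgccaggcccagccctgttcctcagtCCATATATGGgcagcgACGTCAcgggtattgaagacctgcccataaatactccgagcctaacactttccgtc
Motifs were searched on both strands of the 250 bases before each start site. Jun held TGANNTCA, a spacing variant of the AP-1 site, starting 45 bases upstream, a motif found in 11.9% of 32851 promoter windows. Fos held TGACGT, the core of the CREB site, 66 bases upstream (6.47% of windows) and TATAAA 33 bases upstream (12.4%). The Egr2 window printed held a CArG box 72 bases upstream (1.47% of windows) and TGACGT 56 bases upstream. It was chosen among 5 RefSeq start sites as the lowest coordinate holding both motifs. Of the 5 windows, 4 held a CArG box and 3 held TGACGT. Some of these windows overlap and hold the same site, so these are counts of windows and not of separate sites. Jun, Fos and Nr4a1 had 1 window each. Nr4a1 held the EGR-type motif GCGNGGGCG 60 bases upstream (4.7% of windows). The motifs TGACGT and TGANNTCA overlap where a full palindromic CREB site is present, as in Dusp1. In Nr4a1 and, for TGACGT, in Egr2 the match lies on the opposite strand, so its reverse complement is in capitals. A match describes the letters only. RefSeq windows were found for 8 of the 10 genes, the exceptions being Egr1 and Ier2.

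Total counts per library were 5541486 to 8725767, and the level that 3 counts stand for, taken as the floor, lay between 0.31 and 0.61 CPM (TMM-scaled CPM, the count of a gene relative to the scaled library total); it covers counting error only. T cell marker genes were lower with Dox in 11 of 12 genes, with a summed level of 2170 to 2300 CPM without Dox and 169 to 211 CPM with Dox. B cell markers (10 of 10 higher) went from 30.6 to 37 CPM to 1860 to 1950 CPM, and neutrophil markers (10 of 10 higher) from 52.4 to 70 CPM to 2230 to 2360 CPM, with Ly6g at 0 counts in every library without Dox. Megakaryocyte markers were higher in 6 of 6 genes, while monocyte and macrophage markers (3 higher and 3 lower of 11), erythroid markers (4 higher and 2 lower of 9) and endothelial and stromal markers (4 higher and 2 lower of 10) were mixed. The libraries labelled with Dox thus held little of the T cell marker RNA seen in the libraries without it. Haemoglobin genes took 8.61% to 9.04% of counts without Dox and 14.1% to 15.9% with Dox, with Hba-a1 higher (30600 to 59100 CPM) and Hbb-bs lower (28800 to 12300 CPM); both have near-identical copies, between which the counting could split reads. The counts of 4 Y-linked genes summed to between 545 and 801 in libraries lacking Dox and to 0 in each Dox library, while Xist had 193 to 324 counts in the former and 3347 to 5669 in the latter. In bulk samples, fewer cells of a type and less RNA per cell cannot be told apart. The part of cell make-up and of sex-linked differences in the results below was not tested.

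With Dox, Jun, Egr1, Nr4a1 and Ier2 fell, and no member rose. Jun fell 4.56-fold and Egr1 3.61-fold, Ier2 2.1-fold and Nr4a1 1.94-fold. Fos, Junb, Jund, Egr2 and Dusp1 did not pass the test. Of the 9 tested members 4 were lower (edgeR quasi-likelihood test, adjusted p under 0.05 over all 14110 genes tested), beside 22.1% of all tested genes lower and 23.6% higher. Counting both directions, 44.4% of the tested members and 45.6% of all tested genes were called, so the members as a list did not stand apart in how many changed. Groups did not overlap in 4 of the 9 tested members, beside 59.6% of all genes tested. The median log2 fold change was 0.09 over the 9 members and 0.07 over all genes tested. The sign of the members' median depended on the setting: it was -0.1 without Dox replicate 12 (all genes 0.04), -0.32 over the 8 members with at least 10 counts in every library (all genes 0.05) and 0.4 with library size only (all genes 0.38). The summed level of the 10 genes was 378, 408 and 400 CPM without Dox and 272, 330 and 235 CPM with Dox. The sums did not overlap, and the difference of -116 CPM had an exact two-sided permutation p of 0.1, the smallest that 3 against 3 allows. With scaling by library size only the difference was -43.8 CPM, the sums overlapped, and the same exact permutation p was 0.3.

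**Figure D1:**
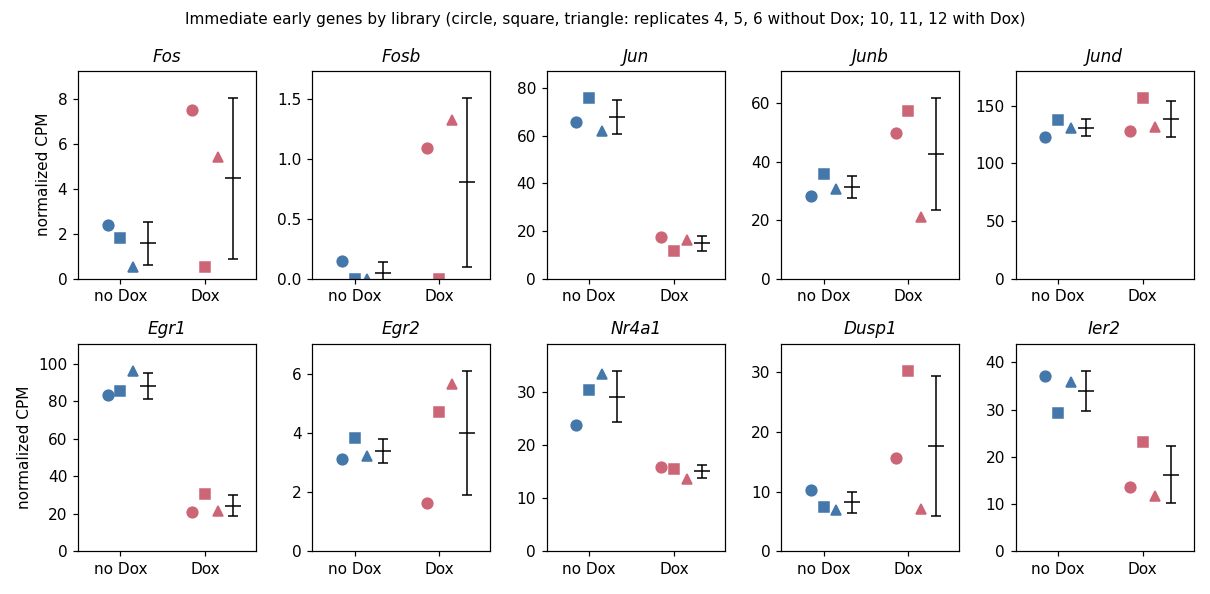
Normalized CPM of each of the 10 genes in each library, with 1 panel per gene and a y axis from 0; points are libraries, black marks are group means and bars are SD (n = 3 per group). The Dox libraries lie below all libraries without Dox for Jun, Egr1, Nr4a1 and Ier2, and they overlap them for the other 6 genes.

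Jun encodes the founding Jun protein, a strong activator within AP-1. Its level was 65.8, 76 and 62 CPM without Dox and 17.3, 11.4 and 16.1 CPM with Dox. All Dox libraries were below all libraries without Dox. The log2 fold change was -2.19 ± 0.24 (SE; adjusted p = 6.25e-05, edgeR), and Jun was called in each of the 15 alternative fits, with log2 fold changes from -2.34 to -1.88.

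Junb, which encodes a weaker activator that can oppose Jun, was at 28.2, 35.7 and 30.7 CPM without Dox and 49.7, 57.4 and 21 CPM with Dox. Dox replicates 10 and 11 were above, and Dox replicate 12 below, every library without Dox. The log2 fold change was 0.44 ± 0.34 (SE; adjusted p = 0.323, edgeR). Without Dox replicate 12 it was 0.75 with an adjusted p of 0.0118, and without Dox replicate 11 it was 0.14 with an adjusted p of 0.776 (edgeR), so the value rested on single libraries. The 3′ end of Junb, where its tags come from, overlaps the 3′ end of Prdx2 on the other strand by 351 bases in GENCODE M21. Prdx2 had 2127 to 3889 counts per library, and whether the counting used strand is not given in the sources used here.

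Jund encodes the Jun protein that is made constitutively in many tissues. It was the most abundant member, at 123, 138 and 131 CPM without Dox and 128, 157 and 132 CPM with Dox. The ranges overlapped, with a log2 fold change of 0.09 ± 0.16 (SE; adjusted p = 0.693, edgeR). Its sign depended on the setting, from -0.05 to 0.4 over 15 alternative fits, and none of them called it. Levels of different genes are set side by side here as CPM of 3′ tags, where about 1 read is expected per transcript whatever its length. Jun and Jund also overlap an antisense RNA gene (Junos and Gm11175). Junos had 16 to 35 counts without Dox and 48 to 118 with Dox, against 366 to 441 and 111 to 127 for Jun; Junos was higher where Jun was lower.

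**Figure D2:**
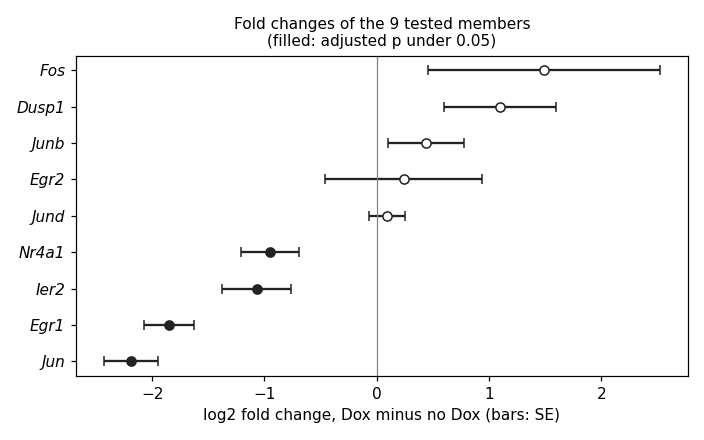
Log2 fold change with Dox (x axis) of the 9 tested members with its SE as a bar; filled points passed an adjusted p of 0.05 (edgeR). Jun and Egr1 have the lowest values, -2.19 and -1.85, and the SE of Fos, 1.03, is the widest.

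Within the Jun family, Jun took a smaller and Jund a larger share of the counts in the Dox libraries. Jun gave 30.3% (95% exact binomial interval 27.9 to 32.7), 30.4% (27.9 to 33.1) and 27.7% (25.3 to 30.2) of the summed Jun, Junb and Jund counts in the libraries without Dox. With Dox it gave 8.86% (7.44 to 10.4), 5.06% (4.18 to 6.07) and 9.54% (7.98 to 11.3). These intervals cover counting error only. The Jun share was 29.5% ± 1.53 without Dox and 7.82% ± 2.41 with Dox (SD, n = 3 per group), and the groups did not overlap. The Jund share was 56.9% ± 1.66 and 71.1% ± 6.32 (SD, n = 3 per group), again with no overlap. The Junb share was 13.7% ± 0.658 and 21.1% ± 7.52 (SD, n = 3 per group) and overlapped, because Dox replicate 12 had 12.4% (10.7 to 14.4); the difference of 7.46 percentage points was 11.8 without that library. Exact two-sided permutation p-values were 0.1, 0.1 and 0.4 (n = 3 per group), and 0.167, 0.167 and 0.4 after Benjamini-Hochberg adjustment over the 5 shares computed. A p of 0.1 is the smallest possible here. The shares do not depend on how the libraries were scaled. In each library they are parts of the same total, so the share of Jund is not a result separate from that of Jun. The level of Jund itself did not pass the test (log2 fold change 0.09, adjusted p = 0.693, edgeR).

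**Figure D3:**
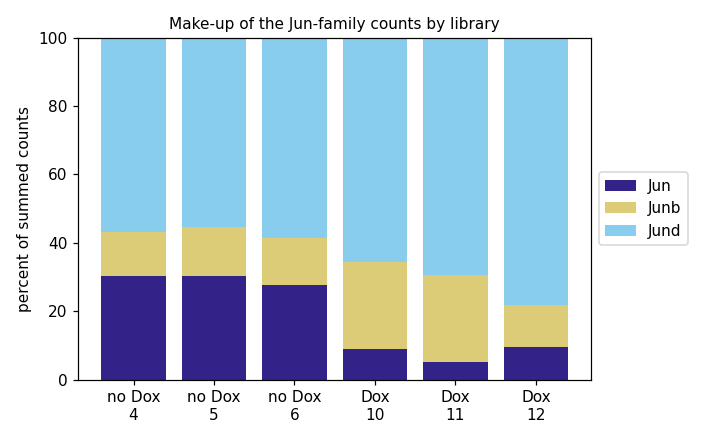
Percent of the summed Jun, Junb and Jund counts (y axis) that each gene took in each of the 6 libraries (stacked bars, x axis). Jun takes 27.7% to 30.4% without Dox and 5.06% to 9.54% with Dox, and Jund takes the largest part in every library.

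Fos encodes the Fos protein, which binds DNA only as a partner of a Jun protein. Its counts were low in every library: 16, 9 and 3 in the group without Dox, then 55, 5 and 41 in the Dox group. These counts correspond to 2.39, 1.82 and 0.509 CPM and to 7.49, 0.515 and 5.4 CPM. Dox replicates 10 and 12 were above all libraries without Dox, whereas Dox replicate 11 lay among them. The log2 fold change of 1.49 ± 1.03 (SE) did not pass the test (adjusted p = 0.268, edgeR). It ranged from 0.87 without Dox replicate 10 to 1.99 without Dox replicate 11, and was 0.98 without no-Dox replicate 6 and 0.73 with limma-voom. None of these fits called Fos. Fosb, a close relative of Fos, was not tested, its counts being 1, 0 and 0 in the group without Dox and 8, 0 and 10 in the Dox group. A count of 0 allows up to 0.61 CPM in the shallowest library, replicate 5 without Dox. Fos and Fosb were thus both highest in Dox replicates 10 and 12 and lowest with Dox in replicate 11, while Jund was highest in replicate 11. Of the Fos and Fosb counts, Fos made up 98% ± 3.4 in the group without Dox against 89.2% ± 9.95 in the Dox group (SD, n = 3), from as few as 3 counts, and the exact two-sided permutation p was 0.4. The difference of -8.81 percentage points was -4.39 without Dox replicate 12 and -14.2 without Dox replicate 11.

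Egr1 encodes a zinc-finger activator that is among the earliest genes induced by antigen receptors and MAP kinases. It had 83.4, 85.3 and 96.3 CPM without Dox and 21, 30.8 and 21.5 CPM with Dox. Every Dox library was below every library without Dox. The log2 fold change was -1.85 ± 0.22 (SE; adjusted p = 0.000103, edgeR), and Egr1 was called in each of the 15 alternative fits, between -2.08 and -1.54. Egr2, which in T cells is tied to the induced state of unresponsiveness, was much lower, at 3.13, 3.85 and 3.22 CPM without Dox and 1.63, 4.73 and 5.67 CPM with Dox. Dox replicate 10 was below and the other two Dox libraries above the libraries without Dox, and the log2 fold change was 0.24 ± 0.7 (SE; adjusted p = 0.802, edgeR). Of the Egr1 and Egr2 counts, Egr1 took 96.3% ± 0.548 in the group without Dox against 86.2% ± 6.84 in the Dox group (SD, n = 3), without overlap. The difference of -10.1 percentage points was -6.56 without Dox replicate 12 and -13.4 without Dox replicate 10. The exact two-sided permutation p was 0.1, and 0.167 after adjustment over the 5 shares.

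Nr4a1 encodes NUR77, an orphan nuclear receptor used as a reporter of antigen receptor signalling. Its level was 23.9, 30.4 and 33.4 CPM without Dox and 15.9, 15.5 and 13.7 CPM with Dox. The groups did not overlap, and the log2 fold change was -0.95 ± 0.26 (SE; adjusted p = 0.0139, edgeR). The call was lost with scaling by library size only (-0.65, adjusted p = 0.0782) and when no-Dox replicate 5 was left out (-0.99, adjusted p = 0.0526).

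Ier2 encodes a short nuclear protein of the immediate early class. It had 37.2, 29.2 and 35.8 CPM without Dox and 13.7, 23.1 and 11.7 CPM with Dox, with no overlap. The log2 fold change of -1.07 ± 0.31 (SE) passed the test (adjusted p = 0.0173, edgeR). It did not pass with library size only (-0.76, adjusted p = 0.073), or without replicate 4 (-1.04, adjusted p = 0.067) or replicate 6 (-1.13, adjusted p = 0.0505) of the group without Dox.

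Dusp1 encodes a phosphatase that is itself induced early and switches MAP kinases off. It had 10.3, 7.5 and 6.95 CPM without Dox and 15.7, 30.3 and 7.12 CPM with Dox. Dox replicates 10 and 11 were above the libraries without Dox, and Dox replicate 12 was among them. The log2 fold change was 1.1 ± 0.5 (SE; adjusted p = 0.1, edgeR). It passed without Dox replicate 12 (1.46, adjusted p = 0.0101) and with library size only (1.42, adjusted p = 0.0407), and dropped to 0.44 without Dox replicate 11 (adjusted p = 0.468). The 5′ edge of its longest annotated span in GENCODE M21 overlaps the 5′ end of Ergic1 on the other strand by 640 bases. That edge lies far upstream of the RefSeq start site used for the motif search, and away from the 3′ end that tags come from. Ergic1 had 193 to 308 counts in the group without Dox and 48 to 73 in the Dox group.

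Within the Dox group, no single library was low throughout the class. Dox replicate 12 was the lowest Dox library in 4 of the 9 tested members and Dox replicate 11 the highest in 5, beside 34.3% and 32% of all genes tested. In order of mean level without Dox, the members ran from Jund (131 CPM) through Egr1 (88.3), Jun (68), Ier2 (34), Junb (31.5), Nr4a1 (29.2), Dusp1 (8.25), Egr2 (3.4) and Fos (1.57) to Fosb (0.0497). The ranges of neighbours overlapped for Ier2, Junb and Nr4a1 and not between Jund, Egr1 and Jun. With Dox the means ran from Jund (139 CPM) to Junb (42.7), Egr1 (24.4), Dusp1 (17.7), Ier2 (16.2), Nr4a1 (15.1) and Jun (14.9). Jund lay above the rest in every Dox library, whereas the ranges of all neighbours from Junb to Jun overlapped, and in Dox replicate 12 Junb (21 CPM) was below Egr1 (21.5 CPM).

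The last 300 bases of the 3′ untranslated region, the end that 3′ tags come from, were searched for the AU-rich pentamer ATTTA on the sense strand. It was present in 7 of the 10 members in the longest GENCODE M21 region of each gene, and in 45.3% of 16561 genes. Fos held 4 copies, Jun and Nr4a1 held 3 each, Junb, Egr1 and Dusp1 held 2 each, and Jund held 1. At least 3 copies were found in 5.48% of all genes. The longer TATTTAT, found in 10.2% of genes, occurred 2 times in Fos and in Dusp1 and 1 time in Jun and Jund, counting overlapping matches. Copies were present in Jun, Egr1 and Nr4a1, which fell, and in Fos, Junb, Jund and Dusp1, which did not pass the test. Ier2, which fell, Egr2, which did not pass, and Fosb, which was not tested, held 0 in these 300 bases. In the whole 3′ untranslated region Egr2 held 3 copies, Fosb 1 and Ier2 0.

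Among 42 other immediate early and early response genes, 41 were tested, of which 14 rose, 8 fell and 19 did not pass (53.7% called, beside 45.6% of all genes). Their median log2 fold change was 0.62. Zfp36l1, which encodes an RNA decay factor that binds AU-rich elements, rose from 56.4, 77.6 and 74.9 CPM to 606, 603 and 262 CPM (log2 fold change 2.82 ± 0.31 (SE), adjusted p = 7.52e-05, edgeR). Btg1, an antiproliferative gene, rose from 146 ± 19 to 382 ± 46.4 CPM (SD, n = 3 per group; adjusted p = 0.000133, edgeR). Egr3, the third EGR gene, rose from 6.33 ± 1.39 to 23.7 ± 7.32 CPM (SD, n = 3 per group; adjusted p = 0.00173, edgeR), with no overlap, while Egr1 fell. Of the relatives of Nr4a1, Nr4a3 rose from 4, 6 and 2 counts to 20, 84 and 17 counts (log2 fold change 2.66 ± 0.96 (SE), adjusted p = 0.0444, edgeR). Nr4a2, at 17, 8 and 7 counts in the group without Dox and 32, 0 and 66 in the Dox group, did not pass (adjusted p = 0.445, edgeR). Phlda1, an early gene of growth factor signalling, fell from 171, 172 and 145 CPM to 3.13, 2.88 and 8.83 CPM (log2 fold change -5.05 ± 0.4 (SE), adjusted p = 9.99e-06, edgeR), and the antiproliferative gene Btg2 fell from 115 ± 19.5 to 68.3 ± 1.92 CPM (SD, n = 3 per group; adjusted p = 0.0068, edgeR). With library size only 15 rose and 5 fell, beside 4257 and 2359 of all 14110 genes tested. Without replicates 4, 5 and 6 of the group without Dox, 9, 9 and 8 genes of the list rose. These counts need not be of the same genes. Among all genes tested in these fits, 2403 of 15576, 2284 of 15676 and 2396 of 15608 rose, against 3324 of 14110 in the main fit. Nr4a3 was called in 8 of the 14 alternative fits that tested it, and Btg2 was not called with library size only (adjusted p = 0.0624).

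**Figure D4:**
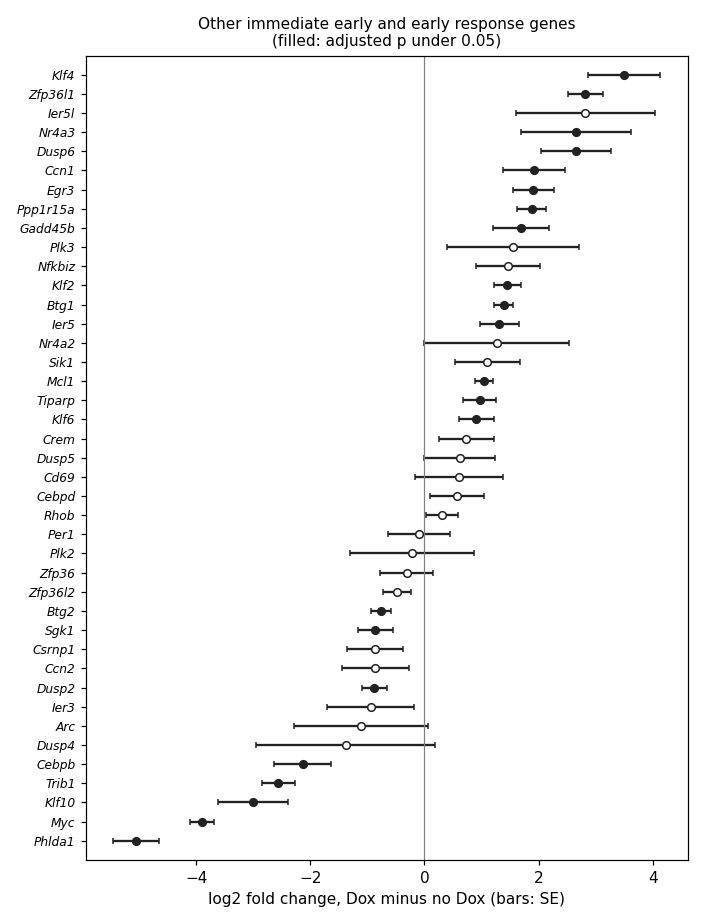
Log2 fold change with Dox (x axis) of the 41 tested early response genes outside the member list, with SE bars; filled points passed an adjusted p of 0.05 (edgeR). Filled points lie on either side of 0, from Phlda1 at -5.05 to Klf4 at 3.5.

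Other proteins that pair or compete with Jun and Fos were described next. Of 14 AP-1 partner and related bZIP genes, 13 were tested, 6 rose and 0 fell (7 did not pass, 46.2% called, beside 45.6% of all genes; median log2 fold change 0.73). Over all genes 23.6% rose and 22.1% fell. The list's median was 1.26 when each gene needed 10 counts per library. Fosl1 had 0 counts in all libraries, which allows up to 0.61 CPM. Fosl2, a late Fos-family gene, rose from 2.39, 4.46 and 4.24 CPM to 13.2, 7.1 and 9.88 CPM (log2 fold change 1.45 ± 0.51 (SE), adjusted p = 0.0397, edgeR), a call that 8 of 15 alternative fits kept. Mafg, which encodes a small MAF protein, rose from 54.2 ± 6.62 to 89.7 ± 16.1 CPM (SD, n = 3 per group; adjusted p = 0.0146, edgeR). Atf3, a stress-induced partner of Jun, had 3.58, 2.63 and 0.17 CPM without Dox and 7.49, 4.22 and 5.14 CPM with Dox and did not pass (adjusted p = 0.233, edgeR). Without replicate 4, 5 or 6 of the group without Dox, or when low-count genes were kept, 3 partner genes rose in place of 6. Mafg was among those lost in each of these 4 fits. Among all genes tested, 2403, 2284, 2396 and 2923 rose in these fits, against 3324 in the main fit.

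Of 12 genes for factors that act at immediate early promoters, 3 rose, 2 fell and 7 did not pass (41.7% called, beside 45.6% of all genes; median log2 fold change 0.21, and 0.51 with library size only, where all genes had 0.38). The median was 0.12 without no-Dox replicate 4, where all genes had 0.13, and 0.08 when low-count genes were kept. With library size only 5 rose and 2 fell, beside 4257 and 2359 of all genes tested. When low-count genes were kept 4 fell, beside 3621 of all 27308 genes. Srf, the factor that binds the CArG box shown above for Egr2, fell from 39.8, 41.3 and 36.6 CPM to 11.3, 15.6 and 6.33 CPM. The groups did not overlap, and the log2 fold change was -1.82 ± 0.34 (SE; adjusted p = 0.00164, edgeR), called in each of 15 alternative fits. Crtc2, a CREB coactivator, fell from 17.8 ± 1.81 to 4.28 ± 3.15 CPM (SD, n = 3 per group; adjusted p = 0.00839, edgeR). The acetyltransferase genes Crebbp (179 ± 4.47 to 373 ± 113 CPM, adjusted p = 0.00262) and Ep300 (59.1 ± 6.01 to 183 ± 67.9 CPM, adjusted p = 0.000584) rose by the same edgeR test (SD, n = 3 per group). Of the EGR corepressor genes, Nab1 rose from 57.5 ± 5.34 to 91.2 ± 17.7 CPM (SD, n = 3 per group; adjusted p = 0.0221, edgeR), a call lost without replicate 4, 5 or 6 of the group without Dox (adjusted p = 0.0704, 0.164 and 0.121), without Dox replicate 10 (adjusted p = 0.0748) and when low-count genes were kept (adjusted p = 0.0979). Nab2, at 84, 38 and 27 counts in the group without Dox and 0, 86 and 1 in the Dox group, did not pass (adjusted p = 0.394, edgeR). Without Dox replicate 11, Nab2 passed, with an adjusted p of 0.00166.

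**Figure D5:**
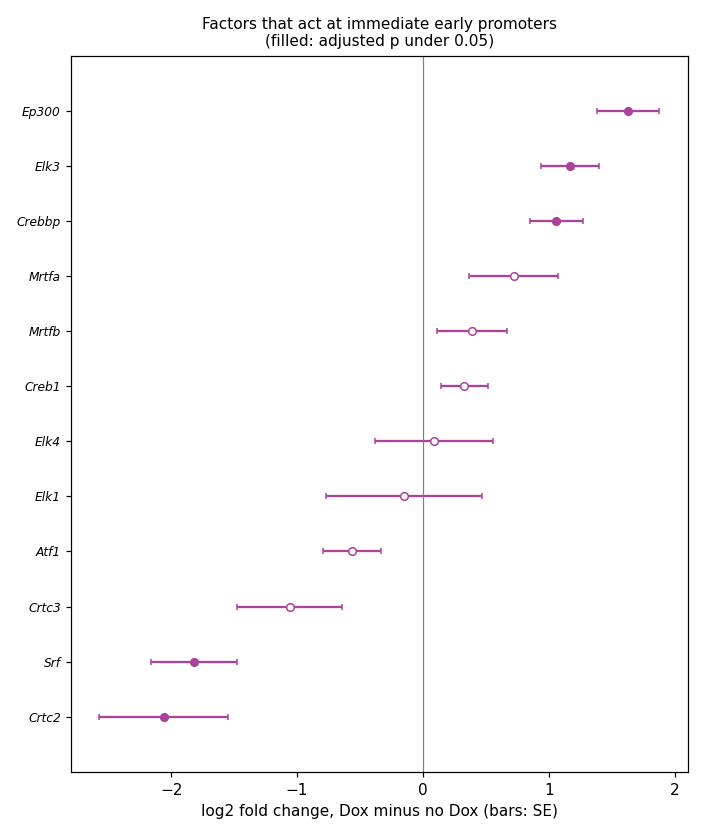
Log2 fold change with Dox (x axis) of 12 genes for factors that act at immediate early promoters, with SE bars; filled points passed an adjusted p of 0.05 (edgeR). Srf lies at -1.82 and Crtc2 at -2.06, while Ep300 lies at 1.63 and Crebbp at 1.06.

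Of 26 genes for the MAP kinase cascades that feed these promoters, 25 were tested, 5 rose, 6 fell and 14 did not pass (44% called, beside 45.6% of all genes). Their median log2 fold change of -0.08 changed sign with the setting, being -0.23 when low-count genes were kept and 0.23 with library size only. At that last scaling 7 rose and 4 fell, beside 4257 and 2359 of all genes tested. Rasgrp1, the RAS exchange factor of T cell receptor signalling, fell from 110 ± 8.7 to 41.8 ± 14.1 CPM (SD, n = 3 per group; adjusted p = 0.00114, edgeR). Map2k3, a kinase of the p38 branch, rose from 49.4 ± 1.46 to 141 ± 4.33 CPM (SD, n = 3 per group; adjusted p = 5.45e-05, edgeR), and Map3k1 rose from 73.9 ± 9.22 to 130 ± 28.1 CPM (adjusted p = 0.00819, edgeR). Without replicate 4, 5 or 6 of the group without Dox, 3 genes rose in place of 5. Among all genes tested, 2403, 2284 and 2396 rose in these fits, against 3324 in the main fit. Map3k1 did not pass without replicate 5 (adjusted p = 0.0572, edgeR) or replicate 6 (adjusted p = 0.0713, edgeR).

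Of 8 genes for proteins that bind AU-rich mRNA, Zfp36l1 rose, 4 fell and 3 did not pass (62.5% called, beside 45.6% of all genes; median log2 fold change -0.62, and -0.31 with library size only). Hnrnpd, which encodes the decay factor AUF1, fell from 465 ± 54.2 to 164 ± 11.8 CPM, and Khsrp, another decay factor, from 205 ± 12.5 to 60.6 ± 3.17 CPM (SD, n = 3 per group; adjusted p = 5.12e-05 and 2.06e-05, edgeR). Zfp36, which encodes tristetraprolin and is an immediate early gene itself, had 19, 17.4 and 14.1 CPM without Dox and 11.6, 23.2 and 5.8 CPM with Dox, with no call (adjusted p = 0.613, edgeR).

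Heat shock genes were included because they are induced with the immediate early genes when tissue is handled. Of 13 genes 11 were tested, 1 rose, 5 fell and 5 did not pass (54.5% called, beside 45.6% of all genes). Their median log2 fold change was -0.88, and it ranged from -1.78 without a low-count filter, through -1.41 with limma-voom, to -0.56 with library size only. The stress-induced genes Hspa1a and Hspa1b were near 0 in every library, with 0 to 7 counts without Dox and 0 or 1 with Dox. Hspa8, a constitutive chaperone gene, fell from 688 ± 69.7 to 222 ± 42.1 CPM, and Hspd1, which encodes mitochondrial HSP60, from 639 ± 15.6 to 143 ± 44.4 CPM (SD, n = 3 per group; adjusted p = 7.11e-05 and 4.5e-05, edgeR). Dnajb4 rose from 26 ± 4.96 to 65.4 ± 13.9 CPM (SD, n = 3 per group; adjusted p = 0.00161, edgeR).

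The genes closest in pattern to Egr1 over the 6 libraries, among 6995 genes of at least median expression, were Tars and Iars, which encode the threonyl- and isoleucyl-tRNA synthetases, and Ncbp2, which encodes a cap-binding protein. Their root mean square distances in centred log2 CPM were 0.04, 0.07 and 0.09. Their log2 fold changes were -1.82, -1.84 and -1.92, beside -1.85 for Egr1. Over so few libraries, a gene with a similar difference between the groups comes out close. Shared regulation was not tested. Closest to Junb were Dhrs1, Rap2b and Tm9sf2 (0.12, 0.13 and 0.13). For Fos, at low counts, the nearest genes, Hinfp, Snx9 and Fbxo32, were farther away (0.5, 0.61 and 0.62).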

How the data were processed

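The authors deposited a table of raw counts by Entrez gene ID, unnormalized, covering the 6 libraries. Per the labels' protocols, libraries were made with a QuantSeq forward kit, which reads the 3′ end of poly(A) RNA, so counts were not scaled by length. The submitters' processing notes name STAR, featureCounts and GRCm38; versions, settings, strand use and annotation are not given in the sources used here. Symbols were matched for 96.5% of IDs through RefSeq (GRCm38.p6), and 0 columns were left unmapped. Counts were fitted with edgeR 4.0.16 in R 4.3.3 (filterByExpr, minimum count 10 and total 15; TMM; quasi-likelihood F-test; no covariate; Benjamini-Hochberg over all genes tested; threshold 0.05), with limma 3.58.1 and DESeq2 1.42.0 as alternatives. Each SE is the absolute log2 fold change divided by the square root of F. Shares and sums were compared by exact permutation (scipy 1.17.1). No pair of libraries within a group agreed within counting noise (6 pairs, chi-square per degree of freedom at least 7.51). On simulated counts for 14110 genes, 60.2% of 186 genes changed by 2 on the log2 scale were called, 0 with the wrong sign, and 5 of 13264 unchanged genes. The simulation changed few genes and gave each gene the same spread in both groups. In the data 45.6% of tested genes were called, and the common biological coefficient of variation was 0.19 without Dox and 0.515 with Dox. The simulated rates therefore need not hold for these data.

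The members and gene lists were chosen with earlier results of these data known. All 10 members are named; from each other list the 2 most abundant genes called in each direction were named, together with Fosl1, Fosl2, Atf3, Egr3, Nr4a2, Nr4a3, Srf, Nab2, Zfp36, Hspa1a and Hspa1b, and the 3 genes nearest in pattern (log2 of CPM plus 0.5) to Fos, Junb and Egr1. Values of 2 genes that this rule names are not reported here. Klf4 was named in a caption after its value was seen. Alternatives changed the scaling, the filter, the gene set, the test, the threshold or left out a library; limma-voom with a variance per group was added after seeing the data.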

Additional observations from a re-analysis of the deposited data

How the results depend on the processing

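No paired analysis was possible because replicates 4, 5 and 6 and replicates 10, 11 and 12 have no number in common. Jun and Egr1 kept their direction and their call in the 15 alternative fits. Scaling by library size alone moved the all-gene median from 0.07 to 0.38, the calls over all genes from 3324 higher and 3114 lower to 4257 and 2359, and the members from 0 higher and 4 lower to 1 and 2. At an adjusted p under 0.01, 2 members were lower, beside 2196 of all 14110 genes tested lower and 2200 higher. Fewer calls follow from the stricter threshold itself. Leaving out each library in turn gave 0 to 2 members higher and 3 to 4 lower, 2284 to 3396 genes higher and 2459 to 3629 lower over all genes, and a summed level lower by -142 to -94.2 CPM. Uncalled changes turned sign for Jund (-0.05 without a low-count filter, 0.00 when no-Dox replicate 6 was left out; -0.04 to 0.11 over all left-out libraries), Egr2 (-0.1 without Dox replicate 12; -0.1 to 0.59), Nr4a2 (-0.97 and -0.95 with limma-voom without and with a variance per group) and Zfp36 (0.01 with library size only and 0.03 without Dox replicate 12; -0.98 to 0.03); the cause was not tested. Of 535 values for named genes, 31 lost and 4 gained the call. The common biological coefficient of variation was 0.19 without Dox and 0.515 with Dox, so Dox means are less precise. Fos, Fosb and Fosl1 had few counts in some or all libraries, and Fos also differed widely between Dox libraries (55, 5 and 41 counts); the parts of depth and spread in its SE were not tested.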
